A study of Mus musculus with 8 samples.

Results

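The 46 genes described here act in DNA replication and S phase, and their RNA was followed, step by step, in the whisker follicle of female ApcMin/+ mice given vehicle or E7386. The members were chosen by name, with earlier results of these data known. Each was measured by the probe whose RefSeq accession maps to its symbol, taking the brightest probe where a gene had several. All 46 had a probe, and 45 passed the detection filter (3 arrays of 4 well above background, in either group) and entered the test, among 25353 genes tested in all. Of these 25353, 16133 carry a gene symbol. The others are unnamed transcripts, each counted as a gene under its name on the array, and shares of all genes include them. The mice carry Min, a truncating allele of Apc, on 1 chromosome, in both groups, and the allele is in all tissues rather than in the follicle alone. Each group, vehicle or E7386, has 4 samples. E7386, a small molecule known to interfere with the contact of beta-catenin and the coactivator CBP, was given by mouth at 30 mg/kg in 2 doses per day, from 8 weeks of age, in 4 cycles of 5 days with dosing and 2 days without. Follicles were taken 6 h after the last dose, and no separate schedule is given for vehicle. Whether each sample is a mouse of its own is not given in the labels, so each p-value measures the spread between these samples.

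A cell copies its DNA in a fixed order of steps. In G1, the origin recognition complex with Cdc6 and Cdt1 loads rings of the Mcm2 to Mcm7 proteins on DNA, and at the start of S phase Cdc45 and the GINS complex turn each ring into a moving helicase. Polymerases, the sliding clamp and its loader then copy both strands, and cyclin E and the E2F factors switch on many of the genes concerned. In a growing hair follicle most dividing cells sit in the matrix of the bulb, under the influence of the dermal papilla and of Wnt signals.

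Values are log2 signal relative to the 75th percentile of the same array, so a difference of 1 is a 2-fold change within a gene, while levels of different genes are not comparable. The 8 arrays share 1 slide, where vehicle fills row 1 and E7386 row 2, so row and treatment cannot be told apart. Follicle markers were present: the 8 inner root sheath genes had a list mean between 6.55 and 7.07 on every array, and the 6 outer root sheath genes between 6.02 and 6.31. The tissue also held muscle. The mean of 12 skeletal muscle genes was 1.71 on vehicle replicate 1, 2.00 on E7386 replicate 1 and 2.67 on E7386 replicate 2, and lay between 3.99 and 4.79 on the other 5 arrays.

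Replication genes were mostly lower with E7386, by a modest amount. Among the 45 members tested, 41 had a lower mean with E7386 and 4 a higher one, whereas 48.0% of all genes tested had a lower mean. The median log2 change of the members was -0.28, beside 0.01 over all genes tested, and the changes of single members ran from -0.77 to 0.16. The members Mcm2 and Cdc6 fell past the threshold (limma, Benjamini-Hochberg adjusted p under 0.05 over all genes) and 0 rose. This count of 2 of 45 stands beside 0.367% of all genes that fell, 0.753% that rose and 1.12% in either direction. Before adjustment, 23 members had a p under 0.05 with a lower mean and 0 with a higher one, beside 7.70% of all genes on the lower side and 7.47% on the higher side. For 13 members every E7386 array lay below every vehicle array, and for 0 members above, whereas 5.70% of all genes tested were separated downwards in this way and 4.82% upwards.

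**Figure D1:**
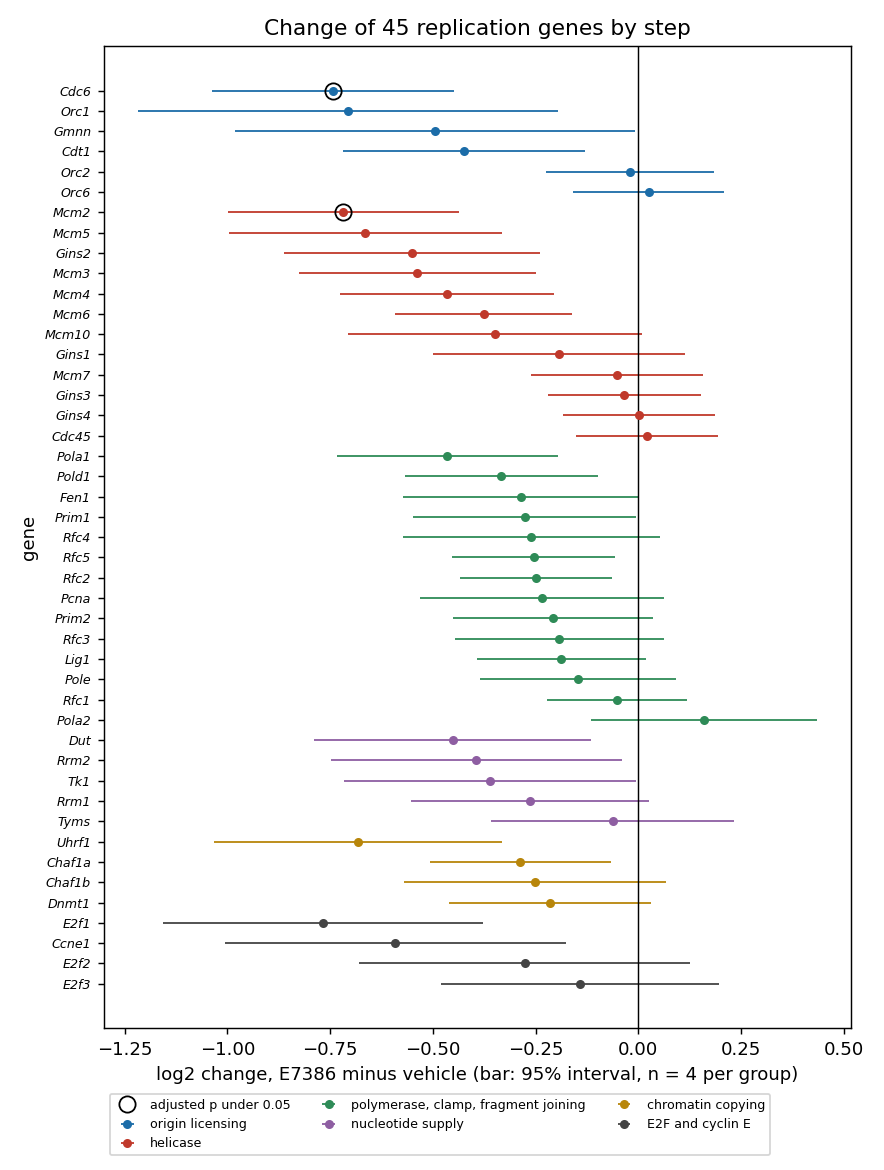
Log2 change (E7386 minus vehicle, x axis) of each of the 45 members tested (y axis), coloured by step, with bars for the 95% interval of the fit over 4 arrays per group. The 2 circled genes, Cdc6 and Mcm2, passed the adjusted threshold, and the changes ran from -0.77 (E2f1) to 0.16 (Pola2).

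Fewer cells in S phase and less RNA per cell cannot be told apart in bulk tissue. The shift was seen in each step, with median log2 changes of -0.46 for origin licensing, -0.36 for the helicase, -0.24 for polymerases, clamp and fragment joining, -0.36 for nucleotide supply, -0.27 for chromatin copying and -0.43 for E2F and cyclin E. The E2F and cyclin E median is -0.28 with no detection filter, which adds Ccne2, a gene at background, and that of origin licensing is -0.27 with normexp background correction. These medians rest on 4 to 14 genes each, and differences between steps were not tested. The steps are taken in turn after the promoters.

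The promoters of the members are shown first, because E2F factors are known to act at many of them. The RefSeq table of GRCm38.p6 holds a promoter window, 250 bases before to 50 after the annotated start, for 37 of the 46 members. Where a gene had several windows, only the first listed was used. Each window was searched on both strands for the E2F words TTTCCCGC, TTTCGCGC, TTTGGCGC and TTTGCCGC, for TTTGAA, the core of the cell cycle homology region found in mitosis genes, and for CCAAT. An E2F word was in 13 of 37 members (35.1%), beside 2.32% of all 27025 genes with a window and 1 of 30 mitosis genes (3.33%). The TTTGAA word showed the reverse arrangement, in 6 of 37 members (16.2%), 22 of 30 mitosis genes (73.3%) and 18.1% of all genes. CCAAT was in 62.2% of members, 76.7% of mitosis genes and 37.9% of all genes. Orc2, Fen1, Lig1, Uhrf1 and Dnmt1, with no E2F word in the window used, have further windows that were not searched. The same holds for Mcm7, E2f2 and E2f3, which had such a word. The windows of 5 genes are given 5' to 3' on the strand of the gene, with capitals for any of these words: both members that fell, E2f1, and Mcm5 and Mcm7, which were added after their values were seen as ring subunits with E2F words and unlike changes. They lie at chr11:98907901-98908200 (Cdc6, plus strand), chr8:75109259-75109558 (Mcm5, plus strand), chr5:138171834-138172133 (Mcm7, minus strand), chr6:88898731-88899030 (Mcm2, minus strand) and chr2:154569377-154569676 (E2f1, minus strand).
Cdc6: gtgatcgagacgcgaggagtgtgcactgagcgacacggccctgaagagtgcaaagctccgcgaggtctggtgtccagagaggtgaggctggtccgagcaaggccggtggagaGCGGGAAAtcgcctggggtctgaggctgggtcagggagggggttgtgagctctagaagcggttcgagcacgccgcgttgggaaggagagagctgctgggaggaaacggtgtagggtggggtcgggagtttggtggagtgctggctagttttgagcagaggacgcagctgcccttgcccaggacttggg
Mcm5: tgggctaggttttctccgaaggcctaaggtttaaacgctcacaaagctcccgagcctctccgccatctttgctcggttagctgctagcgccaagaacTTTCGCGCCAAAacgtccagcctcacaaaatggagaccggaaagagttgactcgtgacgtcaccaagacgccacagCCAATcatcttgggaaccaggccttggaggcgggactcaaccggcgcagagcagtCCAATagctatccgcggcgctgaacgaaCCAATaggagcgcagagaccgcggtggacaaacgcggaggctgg
Mcm7: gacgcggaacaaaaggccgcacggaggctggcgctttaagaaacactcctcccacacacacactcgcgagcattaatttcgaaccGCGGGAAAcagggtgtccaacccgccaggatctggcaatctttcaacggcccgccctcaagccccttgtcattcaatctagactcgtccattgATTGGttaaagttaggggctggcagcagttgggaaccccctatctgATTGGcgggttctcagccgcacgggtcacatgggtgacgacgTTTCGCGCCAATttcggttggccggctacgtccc
Mcm2: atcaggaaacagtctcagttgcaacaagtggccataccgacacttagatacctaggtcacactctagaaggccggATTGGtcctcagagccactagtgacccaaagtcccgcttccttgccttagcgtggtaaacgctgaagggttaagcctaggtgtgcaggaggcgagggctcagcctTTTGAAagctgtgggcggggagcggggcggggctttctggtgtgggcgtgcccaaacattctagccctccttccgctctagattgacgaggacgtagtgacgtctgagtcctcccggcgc
E2f1: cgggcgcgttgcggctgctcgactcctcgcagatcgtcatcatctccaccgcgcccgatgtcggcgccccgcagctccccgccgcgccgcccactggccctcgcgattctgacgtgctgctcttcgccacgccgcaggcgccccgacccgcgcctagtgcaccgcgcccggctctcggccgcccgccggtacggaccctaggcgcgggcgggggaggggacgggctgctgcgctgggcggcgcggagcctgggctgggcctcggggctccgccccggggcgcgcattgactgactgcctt
The Cdc6 window holds 1 E2F word, the reverse complement of TTTCCCGC, whose first base is at position -138 from the start. The Mcm5 window holds 2 that overlap, as TTTCGCGCCAAA, and the Mcm7 window also holds 2, of which TTTCGCGC runs into a CCAAT word on the same strand. The Mcm2 window holds TTTGAA and CCAAT but none of the 4 E2F words, and the E2f1 window holds none of the words searched. This says only that these letters are not in these windows, each placed by 1 annotated start. Much of the E2f1 window reads as E2F1 protein code, so that window lies inside the gene rather than upstream of its coding start. Words near another start would be missed, so the E2f1 promoter cannot be said to lack E2F words. The median log2 change was -0.38 for the 13 members with an E2F word, from -0.74 to -0.03, and -0.26 for the 24 without one in the window, from -0.77 to 0.16. Both ranges overlap broadly, and the difference between the sets was not tested. The 24 include E2f1, the lowest of them, whose window lies inside the gene. The sets therefore do not cleanly compare promoters with and without E2F words. All E7386 arrays lay below all vehicle arrays for 5 of the 13 and for 5 of the 24, beside 5.70% of all genes tested.

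Of the 6 origin licensing genes, 5 were lower in mean with E7386 and 1 fell. Cdc6, the ATPase that helps to load the Mcm ring, had log2 signals of -2.26, -2.66, -2.48 and -2.46 on the vehicle arrays and of -3.03, -3.03, -3.39 and -3.38 with E7386. The groups did not overlap, and Cdc6 fell by 0.74 (SE 0.13, 95% interval -1.04 to -0.45, adjusted p = 0.0412), which is 1.67-fold. Its other detected probe gave -0.67, and normexp background correction of median signals gave a smaller change of -0.43 (adjusted p = 0.0454). Cdt1, which brings the ring to the origin, was at 2.35, 2.22, 2.20 and 2.11 with vehicle and at 2.15, 1.76, 1.67 and 1.60 with E7386. Only E7386 replicate 1 reached into the vehicle range, and the difference of -0.42 (SE 0.13, adjusted p = 0.179) did not pass. Gmnn, which encodes geminin, the inhibitor of Cdt1, differed by -0.49 (SE 0.21, adjusted p = 0.321), so the factor and its inhibitor were both lower in mean.

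Among the subunits of the origin recognition complex, 0 of 3 passed the threshold, and no test compared them with each other. Orc1, the subunit that rises and falls with the cell cycle, was at -4.13, -3.98, -4.17 and -4.49 with vehicle and at -4.58, -4.47, -5.42 and -5.13 with E7386, a difference of -0.71 (SE 0.22, adjusted p = 0.195). It was detected on 4 vehicle arrays but on only 2 E7386 arrays, so the lower values are close to the limit of detection. Orc2 differed by -0.02 (95% interval -0.23 to 0.18) and Orc6 by 0.03 (95% interval -0.16 to 0.21). The signs of both turn under some alternatives, with changes between -0.10 and 0.07.

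Of the 12 helicase genes 10 were lower in mean and 1 fell, and the 6 subunits of the Mcm2 to Mcm7 ring gave unlike values. Mcm2 had log2 signals of 0.80, 0.71, 0.73 and 0.70 with vehicle and of 0.34, 0.05, -0.09 and -0.23 with E7386. Vehicle arrays were tightly grouped at 0.74 ± 0.04 (SD, n = 4) and all E7386 arrays lay lower, at 0.02 ± 0.25. Mcm2 fell by 0.72 (SE 0.12, 95% interval -0.999 to -0.44, adjusted p = 0.0395), or 1.64-fold. Mcm5 was at 1.85, 1.69, 1.66 and 1.57 with vehicle and at 1.43, 1.02, 0.84 and 0.82 with E7386, a difference of -0.66 (SE 0.14, adjusted p = 0.0838). Mcm5 sits beside Mcm2 in the ring, at the gate through which DNA enters, and like Mcm2 it had no overlap between groups. Mcm3 differed by -0.54 (adjusted p = 0.0984), Mcm4 by -0.46 (adjusted p = 0.109) and Mcm6 by -0.38 (adjusted p = 0.113), each also without overlap and short of the threshold.

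Mcm7 had the smallest difference of the ring subunits. Its log2 signals were 3.13, 3.05, 2.91 and 2.93 with vehicle and 3.14, 2.90, 2.89 and 2.87 with E7386, so the groups overlapped. The difference was -0.05 (SE 0.09, 95% interval -0.26 to 0.16, adjusted p = 0.846), and this interval lies above that of Mcm2. Within each array, Mcm2 minus Mcm7 was -2.33, -2.33, -2.18 and -2.23 with vehicle and -2.80, -2.86, -2.98 and -3.11 with E7386. The mean of that within-array difference was 0.67 lower with E7386, given without a test because the pair was chosen after its values were seen.

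**Figure D2:**
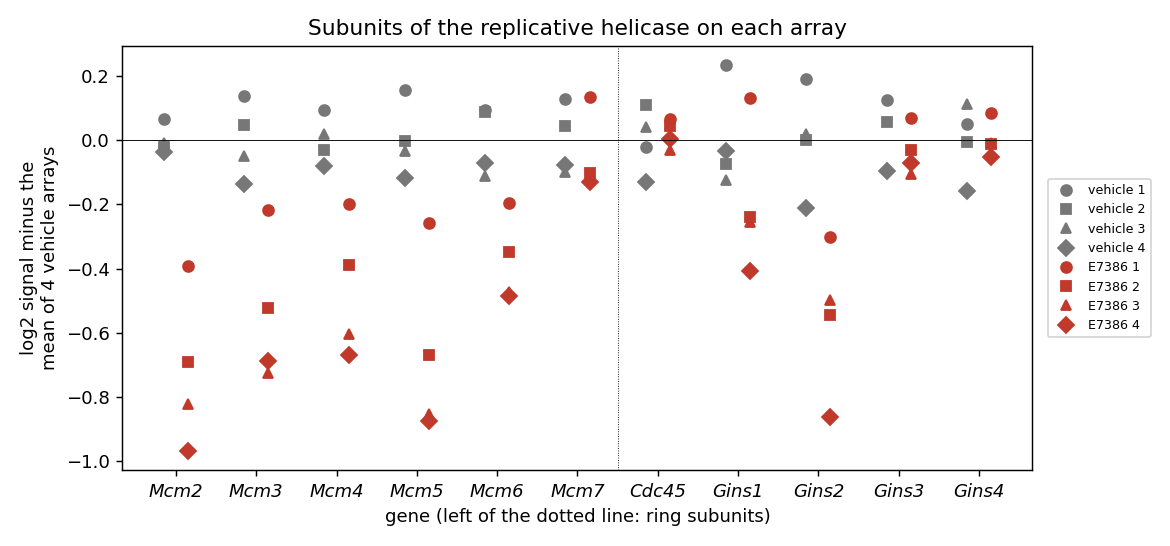
Log2 signal of 11 helicase genes on each of the 8 arrays, minus the mean of the 4 vehicle arrays of that gene (y axis), with 1 symbol per replicate number, grey for vehicle and red for E7386. Mcm2 to Mcm6 and Gins2 have all red points below all grey points, whereas Mcm7, Cdc45, Gins1, Gins3 and Gins4 overlap.

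The partners that turn the ring into a working helicase also gave unlike values. Gins2, a GINS subunit also known as Psf2, was at -0.44, -0.63, -0.61 and -0.84 with vehicle and at -0.93, -1.17, -1.13 and -1.49 with E7386. The groups did not overlap, and the difference was -0.55 (SE 0.14, adjusted p = 0.111). The other GINS genes were nearer to 0, Gins1 at -0.19 (95% interval -0.50 to 0.11), Gins3 at -0.03 (95% interval -0.22 to 0.15) and Gins4 at 0.002 (95% interval -0.18 to 0.19). Gins2 minus Gins3, taken within arrays, averaged -5.51 (SD 0.10, n = 4) for vehicle and -6.03 (SD 0.19) for E7386, again without a test for a pair chosen after its values were seen. Cdc45, the third part of the helicase, differed by 0.02 (95% interval -0.15 to 0.19). Mcm10, which helps to start the helicase, was at -0.35 (SE 0.16, adjusted p = 0.342). The signs of Cdc45, Gins3 and Gins4 turn under some alternatives, with changes between -0.11 and 0.06.

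Genes of DNA synthesis at the fork were lower by smaller amounts, and 0 of 14 passed the threshold. Pola1, the catalytic subunit of polymerase alpha, which starts each new strand, was at 0.22, 0.18, 0.05 and 0.01 with vehicle and at -0.10, -0.40, -0.61 and -0.30 with E7386. Every E7386 array was lower, and the difference of -0.47 (SE 0.12, adjusted p = 0.116) was the most negative of this step. Its partner subunit Pola2 had the opposite sign, at 0.16 (SE 0.12, 95% interval -0.11 to 0.43), and E7386 replicate 4 had the highest signal of the 8. The primase subunits Prim1 and Prim2 differed by -0.28 (adjusted p = 0.319) and -0.21 (adjusted p = 0.4). Pold1, the catalytic subunit of polymerase delta on the lagging strand, was at -0.33 (SE 0.10, adjusted p = 0.184), and Pole, that of polymerase epsilon on the leading strand, at -0.15 (SE 0.10, adjusted p = 0.551).

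The clamp and its loader were lower in mean without exception. Pcna, the sliding clamp, was at 4.17, 4.16, 3.95 and 3.72 with vehicle and at 3.97, 3.82, 3.63 and 3.64 with E7386, with overlap and a difference of -0.23 (SE 0.13, adjusted p = 0.439). Of the 5 genes of the clamp loader, Rfc2 and Rfc5 had no overlap between groups, at -0.25 (adjusted p = 0.205) and -0.25 (adjusted p = 0.223). Rfc1, the large subunit, was at -0.05 (95% interval -0.22 to 0.12), Rfc3 at -0.19 and Rfc4 at -0.26, where the other probe gave -0.31. Fen1, the nuclease that trims lagging-strand fragments, was at -0.29 (adjusted p = 0.328) and Lig1, which seals them, at -0.19 (adjusted p = 0.373).

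Nucleotide supply genes were lower in mean in 5 of 5 cases, with overlap between groups in each. Rrm2, the S phase subunit of ribonucleotide reductase, was at 2.71, 2.68, 2.41 and 2.30 with vehicle and at 2.52, 2.08, 1.98 and 1.95 with E7386. E7386 replicate 1 lay among the vehicle arrays and the other 3 lay below them, for a difference of -0.39 (SE 0.15, adjusted p = 0.281). Dut, which removes dUTP, differed by -0.45 (SE 0.15, adjusted p = 0.204), Tk1, the thymidine kinase of S phase, by -0.36 (SE 0.15, adjusted p = 0.321) and Rrm1 by -0.26 (SE 0.13, adjusted p = 0.374). Tyms, which makes thymidylate, was at -0.06 (95% interval -0.36 to 0.23).

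Among genes that copy chromatin behind the fork, Uhrf1 stood lowest. Uhrf1, which finds hemimethylated DNA and recruits the maintenance methyltransferase, was at 2.74, 2.58, 2.62 and 2.56 with vehicle and at 2.36, 2.00, 1.78 and 1.63 with E7386. The groups did not overlap, and the difference was -0.68 (SE 0.15, 95% interval -1.03 to -0.33, adjusted p = 0.0883), with -0.74 on its other probe. Dnmt1, that methyltransferase, differed by -0.22 (SE 0.11, adjusted p = 0.388). Chaf1a and Chaf1b, subunits of the factor that places histones on new DNA, differed by -0.29 (adjusted p = 0.215, no overlap) and -0.25 (adjusted p = 0.44).

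The regulators at the entry to S phase held the most negative member. E2f1, an activating E2F factor, was at -0.83, -0.68, -0.68 and -0.89 with vehicle and at -1.09, -1.48, -1.65 and -1.94 with E7386. The E7386 arrays were all lower and more spread (SD 0.35 against 0.11), and the difference of -0.77 (SE 0.17, 95% interval -1.16 to -0.38, adjusted p = 0.0858) did not pass. E2f2 differed by -0.28 (SE 0.17) and E2f3 by -0.14 (SE 0.15, and -0.10 on its other probe), both with overlap. Ccne1, which encodes cyclin E1, was at 1.31, 1.18, 0.90 and 0.71 with vehicle and at 0.83, 0.46, 0.23 and 0.21 with E7386, a difference of -0.59 (SE 0.18, adjusted p = 0.183) with -0.54 on its other probe. Ccne2 was not well above background on any of the 8 arrays and has no fold change here.

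**Figure D3:**
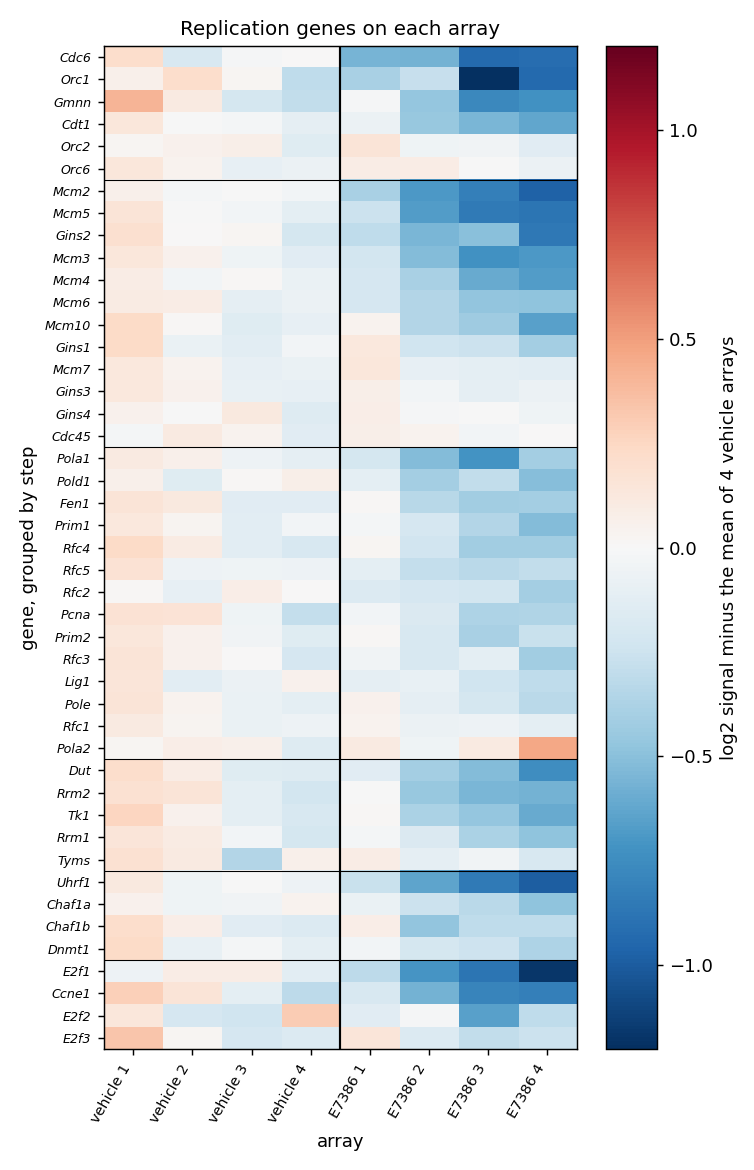
Log2 signal of each of the 45 members tested (rows, grouped by step) on each of the 8 arrays (columns), minus the mean of the 4 vehicle arrays, in blue where lower and red where higher. E7386 replicate 1 is the palest of the E7386 columns, with a median difference of -0.03, against -0.26, -0.38 and -0.41 for replicates 2, 3 and 4. The vehicle columns have medians of 0.14, 0.05, -0.05 and -0.11 for replicates 1 to 4.

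The difference from the vehicle mean varied between the E7386 samples, and the vehicle samples varied in the same order of replicate number. Over the members, the median difference from the vehicle mean was -0.03 on E7386 replicate 1, -0.26 on replicate 2, -0.38 on replicate 3 and -0.41 on replicate 4. On vehicle replicates 1 to 4 it was 0.14, 0.05, -0.05 and -0.11. Member list means on replicates 1 to 4 were 1.17, 1.05, 0.96 and 0.92 with vehicle. With E7386 they were 0.95, 0.73, 0.61 and 0.56. E7386 replicate 1 had the highest signal of its group for 40 of the 45 members, and vehicle replicate 1 that of its own group for 36. Replicate 4 had the lowest signal of its group for 29 members in vehicle and for 29 members with E7386. The muscle mean was low on vehicle replicate 1, E7386 replicate 1 and E7386 replicate 2, as given above. Its part in these differences between replicates was not tested. By group, the muscle mean was 3.72 ± 1.37 (SD, n = 4) for vehicle and 3.54 ± 1.41 for E7386, while the member list was 1.03 ± 0.11 with vehicle and 0.71 ± 0.17 with E7386. With the muscle mean as a covariate, an alternative chosen after seeing the data, 12 members fell: Cdc6, Mcm2, Mcm3, Mcm4, Mcm5, Mcm6, Gins2, Gmnn, Dut, Uhrf1, Ccne1 and E2f1. Calls over all genes tested also grew in that fit, to 267 that fell and 323 that rose, from 93 and 191 in the main setting. Without the 3 arrays of low muscle signal 0 members were called, with 3 vehicle and 2 E7386 arrays left, and the median change was -0.38.

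Both calls rest on small margins. Mcm2 kept its call only in the fit without E7386 replicate 1 (adjusted p = 0.0145), and without any other array its adjusted p lay between 0.0843 and 0.135. Cdc6 lost its call whichever of the 8 arrays was left out, with adjusted p from 0.0522 to 0.13 and changes from -0.81 to -0.67. Without E7386 replicate 1, Mcm3 (-0.64, adjusted p = 0.0437), Mcm5 (-0.80, adjusted p = 0.0236), Uhrf1 (-0.82, adjusted p = 0.0271) and E2f1 (-0.92, adjusted p = 0.0308) passed the threshold as well as Mcm2. Over all genes tested, 82 fell and 158 rose in that fit, against 93 and 191 with all 8 arrays. Leaving out any of the other 7 arrays left 0 members past the threshold. Mcm2 and Cdc6 also lost their calls with no detection filter (adjusted p = 0.0824 and 0.0845) and with the replicate number as a block (adjusted p = 0.096 and 0.116), and Cdc6 with its probes averaged (adjusted p = 0.0776).

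Replication genes outside the 46, taken from a list of 41 that were all tested, were lower by less. Their median log2 change was -0.15, with 37 of 41 lower and 0 past the threshold in either direction. For 6 of the 41 every E7386 array lay below every vehicle array, beside 5.70% of all genes tested. Pold2, the second subunit of polymerase delta, was at -0.52 (SE 0.13, adjusted p = 0.11), Nasp, a histone chaperone, at -0.44 (SE 0.11, adjusted p = 0.112) and Pole2, the second subunit of polymerase epsilon, at -0.44 (SE 0.12, adjusted p = 0.138). Other subunits of these polymerases were nearer to 0, Pold3 at -0.13 and Pole3 at -0.15, and of the single-strand binding protein RPA, Rpa1 was at -0.37 (adjusted p = 0.158) and Rpa2 at -0.04.

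Genes of the mitosis list were measured in 36 of 36 cases and overlapped between groups in all of them. Over all genes tested, 5.70% were separated downwards and 4.82% upwards. Their median log2 change was -0.07, with 29 of 36 lower and 0 at an unadjusted p under 0.05 in limma. The 3 with the smallest p were Bub1, a spindle checkpoint kinase, at -0.28 (SE 0.15, adjusted p = 0.416), Ttk, another kinase of that checkpoint, at -0.35 (SE 0.23, adjusted p = 0.512) and Cenpf, a centromere protein, which was detected on 3 vehicle and 0 E7386 arrays and so has no measured fold. Mki67, the Ki-67 proliferation marker, was at -0.08 (SE 0.14). The mitosis list mean was 0.31 on vehicle replicate 1 and 0.27 on E7386 replicate 1, against -0.21 and -0.22 on replicate 4 of each group, so each group spanned nearly the whole range.

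**Figure D4:**
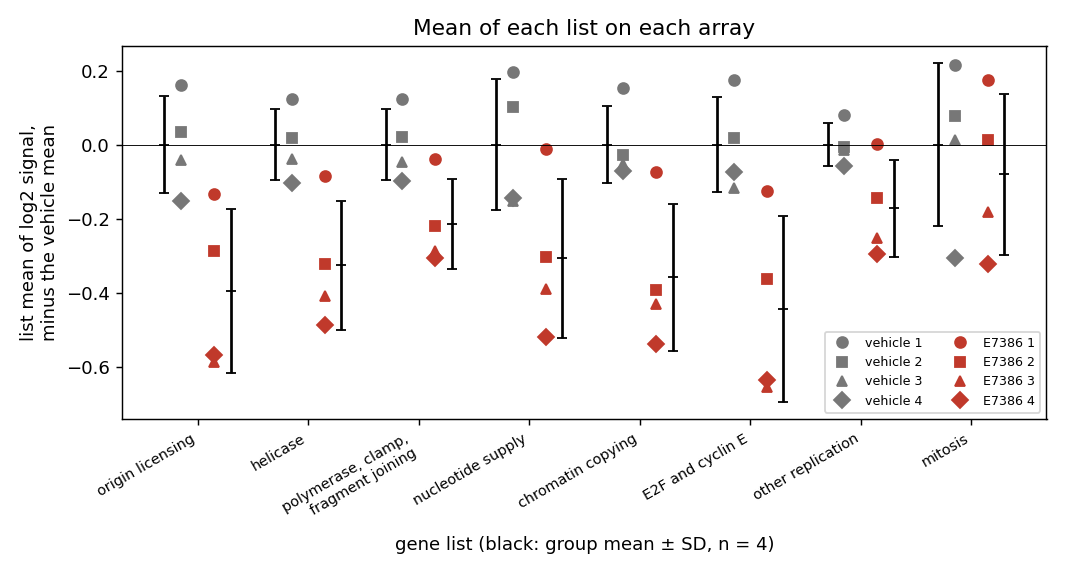
Mean log2 signal of each list on each array, minus the vehicle mean (y axis), for the 6 steps, the 41 other replication genes and the 36 mitosis genes (x axis), with black bars for the group mean ± SD over 4 arrays. The red E7386 points lie mostly under the grey vehicle points in the steps, while the mitosis points of both groups span the same range.

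Upstream of E2F, genes of G1 and of the RB pathway were mixed. Of 28 listed, 26 were tested, with a median change of -0.07. Of these 1 rose and 1 fell, beside 0.753% and 0.367% of all genes tested. Ccnd1, which encodes cyclin D1 and opens the RB switch, was at 3.91, 3.82, 3.70 and 3.62 with vehicle and at 3.21, 3.11, 2.74 and 2.84 with E7386 and fell by 0.79 (SE 0.12, adjusted p = 0.0294). Tfdp2, a DNA-binding partner of E2F factors, was at 0.04, 0.03, 0.07 and 0.15 with vehicle and at 0.51, 0.51, 0.81 and 0.74 with E7386 and rose by 0.57 (SE 0.09, adjusted p = 0.0328). The other detected probe of Tfdp2 differed by only 0.16, and with both probes averaged the change was 0.36 and did not pass (adjusted p = 0.122). With no detection filter (adjusted p = 0.0633 for Ccnd1 and 0.0714 for Tfdp2) and with the replicate block (0.0593 and 0.0959) neither gene passed. Both calls were kept with 1 array left out only in the fit without E7386 replicate 1, with adjusted p up to 0.0991 for Ccnd1 and 0.103 for Tfdp2 over the 8 fits. Tfdp1, another such partner, was at -0.27 (SE 0.12, adjusted p = 0.347). Ccnd2 was at -0.50 (SE 0.11, adjusted p = 0.0838), and the inhibitors Cdkn2a and Cdkn1b were at 0.89 (SE 0.22, adjusted p = 0.118) and 0.27 (SE 0.08, adjusted p = 0.177), each without overlap between groups. Over all genes tested, 5.70% were separated downwards and 4.82% upwards. The other inhibitors of this list, Cdkn1a, Cdkn1c, Cdkn2b, Cdkn2c and Cdkn2d, overlapped, with changes from -0.08 (Cdkn1c) to 0.16 (Cdkn1a).

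Markers of other cells in the tissue are given beside these results, and their part in them was not tested. The 6 dermal papilla genes were all lower in mean, 0 past the threshold, with list means from -0.97 to -0.79 with vehicle and from -1.72 to -1.05 with E7386, and Corin among them was detected on 4 vehicle arrays and 1 E7386 array. The 11 hair matrix and shaft genes tested of 13 were all higher in mean, 0 past the threshold, with list means from 6.00 to 7.19 and from 6.77 to 7.32. The 4 immune genes tested of 5 had list means from 0.87 to 1.36 and from 0.67 to 1.34, the 3 endothelial genes from 0.99 to 1.31 and from 1.16 to 1.30, and the 3 Schwann cell genes from 1.60 to 1.98 and from 1.73 to 2.44. The 5 fat genes ran from -2.24 to -0.71 and from -1.64 to 0.06, and the 3 blood genes from 5.62 to 7.39 and from 5.64 to 7.28.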

How the data were processed

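Total RNA of 8 whisker follicle samples was labelled with Cy3 and hybridised to 1-colour Agilent arrays designed on mm9, per the labels' protocols and the file headers. The authors' scanner files hold intensities per spot from Feature Extraction (per the file headers version 11.5.1.1, while the submitters' processing notes name version 11), and 0 or 1 flags of that program. Their deposited value table holds log2 values with the same sorted values in every column, so it was quantile normalised, and it served as an alternative.

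The main value is log2 of the background-corrected processed signal, with spots of a probe averaged, minus the array's 75th percentile over the 55681 probes. Spots marked non-uniform (2 to 14 per array) were set to missing. Unversioned accessions were matched to RefSeq (GRCm38.p6), which named 27509 probes. A gene needed detection on 3 of 4 arrays of a group. Tests used limma 3.58.1 in R 4.3.3 over 25353 genes, with Benjamini-Hochberg adjustment, and were tested on simulated data. Between 62.2% and 64.7% of spots were well above background on the vehicle arrays and between 61.5% and 61.9% on the E7386 arrays. The part of this difference in the results was not tested. Precision is limited by the number of arrays. The text names all members, each member of 3 further lists past the threshold and the 3 with the smallest p of each, and other genes of these lists after their values were seen. The members and lists were chosen with earlier results of these data known. Alternatives changed the background correction, scaling, filter, probe, variance model, weights, block and arrays used. The scanner files hold median signals, and normexp was run on these in place of mean signals. Deviations of same-numbered samples correlated at 0.487, -0.165, 0.287 and 0.18 for numbers 1 to 4. The labels tie no number to a shared mouse or batch, and number 2 was not above 0.1, so the number was not taken as a pairing. Protein sequences were not used here.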

Additional observations from a re-analysis of the deposited data

Results flagged for a closer look

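Of 104 groups of 4 screened (the members, the 6 steps and the whole list, in both groups), 3 had an array set apart from the other 3 by more than Dixon's critical share of the group's range, where chance gives about 1 in 20. Mcm7 was at 3.14 on E7386 replicate 1 and between 2.87 and 2.90 on the other E7386 arrays. Rfc5 was at 2.08 on vehicle replicate 1, against 1.84 to 1.86 on the other vehicle arrays, and at 1.79 on E7386 replicate 1, against 1.58 to 1.62. In each of the 3 the array is replicate 1 of its group and the highest, as for most members.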

How the results depend on the processing

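The median change of the members stayed negative in all 21 alternatives, between -0.38 and -0.23, and 40 of 45 members kept their sign in every one. The median of origin licensing moved to -0.27 with normexp on median signals, chosen after seeing the data. Members that fell numbered 5 with normexp, 12 with the muscle mean as a covariate, 1 with probes averaged (Cdc6 lost, adjusted p = 0.0776) and 0 with no detection filter, with the replicate block and when the 3 low-muscle arrays were dropped, and from 0 to 5 with 1 array left out. Members that rose numbered 0 throughout. Over all genes, 216 fell with normexp, 158 with trend and robust options, and with no detection filter 41 fell and 112 rose. With the muscle covariate 267 fell and 323 rose, and without the 3 arrays 12 fell and 36 rose. Scaling by array medians gave 123 that fell and 135 that rose, against 93 and 191 in the main setting, and normexp gave 283 that rose. With 1 array left out, 21 to 82 fell and 67 to 158 rose. With the replicate block 9 fell and 50 rose. Same-numbered samples correlated above 0.1 for 3 of 4 numbers, and not every sample correlated best with its own number, so whether the numbers pair the samples is not settled. Reversals concern 5 members near 0. Cdc45 was at -0.056 with array medians, -0.042 with the authors' values, -0.035 with normexp, -0.034 with quantile normalization and -0.02 without the 3 arrays. Gins4 was at -0.075 with array medians, -0.0082 with array weights, -0.0037 with the muscle covariate and -0.015 without the 3 arrays. Orc6 was at -0.052 with array medians and -0.00066 with normexp. With 1 array left out, Cdc45 ran from -0.022 to 0.058, Gins3 from -0.069 to 0.0077, Gins4 from -0.051 to 0.0401, Orc2 from -0.079 to 0.019 and Orc6 from -0.00798 to 0.069. The causes were not tested. Signal near background limits Orc1 and Ccne2.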
